A study of Mus musculus with 14 samples.

Results

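The T cell receptor complex and its coreceptors were followed through 10 genes: Cd3d, Cd3e, Cd3g, Cd247, Cd4, Cd8a, Cd8b1, Cd5, Cd6 and Themis. A gene was measured by the probe whose annotation names that gene alone, and 9 of the 10 genes had exactly 1 such probe. Cd247 was not analysed here. The 9 genes belong to 22180 named genes, of which 13805 were tested, and all 9 were tested. The genes were picked by name, with earlier results of these data known, so their counts below are a description and not an independent test. All 9 lay above the median of the table (3.88, on the log2 scale of all levels given here) on each of the 14 arrays.

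The study sorted bone marrow cells that stain for Sca1 and not for cKit from female NCR-NU mice, an athymic nude strain, and hybridised the amplified RNA of 1 mouse to each array. There were 3 old tumor-bearing mice, 5 old cancer-free mice, 3 young tumor-bearing mice and 3 young cancer-free mice. Tumor-bearing mice carried primary tumors matched in size between the ages, and cancer-free mice carried a Matrigel control. The labels give neither the ages in weeks nor the kind of tumor, and every animal was athymic, so no group with a thymus was set beside these.

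The alpha and beta (or gamma and delta) chains of the T cell receptor recognise antigen, and the CD3 chains encoded by Cd3d, Cd3e and Cd3g, with the zeta chain encoded by Cd247, carry the signal into the cell. CD4 and CD8 bind MHC molecules of class II and class I and bring the kinase Lck to the complex, while CD5 and CD6 dampen or tune the signal and THEMIS acts downstream of it during T cell selection. Most such cells mature in the thymus, which nude mice lack, and these mice are known to gain some T cells outside it with age. Several of these genes are not limited to T cells: mouse dendritic cell subsets can carry CD8 alpha or CD4, and a B cell subset carries CD5. The values come from bulk sorted cells, so fewer cells of a type and less RNA per cell cannot be told apart.

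Cd3d, Cd3g and Cd3e lie together on mouse chromosome 9, and the outermost annotated starts of Cd3d and Cd3g, which point away from each other, are 1338 bases apart, while those of Cd3d and Cd3e are 27894 bases apart. Their promoters are shown because the levels of the 3 genes varied together over the mice, and that of Cd8a because it had the widest difference between the ages in tumor-bearing mice. Sequences are RefSeq's (build GRCm38.p6), written 5′ to 3′ on the gene's own strand and ending at the base before the outermost annotated start. They span chr9:44981579-44981768 on the plus strand for Cd3d, chr9:44980432-44980621 on the minus strand for Cd3g, chr9:45009664-45009853 on the minus strand for Cd3e and chr6:71373237-71373426 on the plus strand for Cd8a. Capitals mark matches, on either strand, to the ETS core GGAAG, the E-box CAGNTG or the GATA site AGATAA.
Cd3d: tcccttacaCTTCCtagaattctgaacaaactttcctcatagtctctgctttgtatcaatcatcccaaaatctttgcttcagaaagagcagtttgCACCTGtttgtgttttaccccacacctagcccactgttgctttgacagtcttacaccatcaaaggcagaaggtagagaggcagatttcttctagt
Cd3g: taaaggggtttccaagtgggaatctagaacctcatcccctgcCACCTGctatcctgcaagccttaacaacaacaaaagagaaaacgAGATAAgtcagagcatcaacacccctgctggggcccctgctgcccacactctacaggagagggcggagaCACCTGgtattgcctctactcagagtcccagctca
Cd3e: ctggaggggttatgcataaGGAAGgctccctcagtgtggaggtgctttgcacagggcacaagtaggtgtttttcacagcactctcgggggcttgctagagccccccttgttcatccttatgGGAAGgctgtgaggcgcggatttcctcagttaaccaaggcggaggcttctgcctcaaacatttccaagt
Cd8a: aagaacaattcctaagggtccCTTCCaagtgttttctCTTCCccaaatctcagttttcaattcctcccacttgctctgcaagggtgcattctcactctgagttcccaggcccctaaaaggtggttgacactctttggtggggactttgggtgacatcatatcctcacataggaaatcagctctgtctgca
Cd3d held 1 ETS core and 1 E-box, Cd3g 2 E-boxes and 1 GATA site, Cd3e 2 ETS cores and Cd8a 2 ETS cores, and no match overlapped another. Promoter entries were matched for 6 of the 9 genes (these 4, Cd5 and Themis). The ETS core was in 4 of the 6 and in 54% of 22221 mouse promoters of the same length, and the E-box was in 3 of the 6 and in 37% of all. The GATA site was in 1 of the 6 against 7.95% of all. The RUNX core TGTGGT and the TATA box TATAAA were in 0 of the 6, against 11.3% and 10.9% of all. These are matches of letters and do not show binding.

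Across the table as a whole, array medians ran between 3.81 and 3.93, and the mean correlation of an array with the others ran between 0.908 (young tumor-bearing replicate 1) and 0.941 (young cancer-free replicate 1). With limma and Benjamini-Hochberg adjustment over the 13805 genes, 0 genes (0%) had an adjusted p under 0.05 in any of the 5 comparisons, so none of the differences below passed that test. Of the 13805 genes, the unadjusted p in limma was under 0.05 for 745 in the tumor comparison of young mice and 1348 in that of old mice. It was so for 1057 in the age comparison of cancer-free mice and 1394 in that of tumor-bearing mice, and for 610 for the difference of the tumor effects between the ages. A share of about 0.05 of the genes would pass this threshold if none differed. Kit, which encodes the marker the sort left out, averaged 6.004 ± 0.27 in old tumor-bearing, 5.50 ± 0.27 in old cancer-free, 6.62 ± 0.48 in young tumor-bearing and 5.88 ± 0.55 in young cancer-free mice (SD, n = 3, 5, 3 and 3). Ptprc, the leukocyte marker CD45, averaged 10.57 ± 0.040, 10.99 ± 0.29, 10.76 ± 0.086 and 10.84 ± 0.11 in the same 4 groups. For tumor in young mice Kit differed by 0.74 ± 0.30 (SE, 95% interval 0.088 to 1.39, adjusted p = 0.886 in limma). For tumor in old mice Ptprc differed by -0.42 ± 0.17 (SE, 95% interval -0.79 to -0.054, adjusted p = 0.467 in limma). In the other comparisons the intervals of both genes took in 0. The part of these differences in the levels below was not tested. Ly6a, which encodes Sca1, was left out here.

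The CD3 chain genes had their lowest levels in young tumor-bearing mice. The mean of Cd3d, Cd3e and Cd3g was 9.79 ± 0.30 in old tumor-bearing, 10.12 ± 0.48 in old cancer-free, 8.65 ± 0.81 in young tumor-bearing and 9.78 ± 0.32 in young cancer-free mice. Cd3d, which encodes CD3 delta, stood at 9.56, 8.97 and 9.29 in old tumor-bearing mice, at 9.17, 9.88, 9.62, 10.33 and 8.91 in old cancer-free mice, at 6.07, 9.09 and 8.04 in young tumor-bearing mice and at 9.16, 9.81 and 9.29 in young cancer-free mice. The 3 young tumor-bearing mice spanned about 3.01 log2 units, and all of them lay under all 3 young cancer-free mice, whereas the highest of them lay above the lowest old tumor-bearing mouse. Cd3d was 1.69 ± 0.57 (SE) lower in young tumor-bearing than in young cancer-free mice (95% interval -2.91 to -0.47, adjusted p = 0.886 in limma). Without young tumor-bearing replicate 1, whose Cd3d was the lowest on any array, that difference was -0.86.

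Cd3e, which encodes CD3 epsilon, the chain that pairs with both other CD3 chains, stood at 10.74, 10.52 and 10.14 in old tumor-bearing mice, at 9.97, 10.68, 10.52, 11.39 and 10.69 in old cancer-free mice, at 9.30, 9.90 and 8.69 in young tumor-bearing mice and at 10.26, 10.80 and 9.78 in young cancer-free mice. All 3 old tumor-bearing mice were above all 3 young tumor-bearing mice, while the young groups overlapped by 1 mouse of each. The difference between old and young tumor-bearing mice was 1.17 ± 0.37 (95% interval 0.37 to 1.97, 2.25-fold, adjusted p = 0.315). Between young tumor-bearing and young cancer-free mice it was -0.99 ± 0.37 (95% interval -1.78 to -0.19, adjusted p = 0.886).

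Cd3g, which encodes CD3 gamma, stood at 10.09, 9.48 and 9.30 in old tumor-bearing mice, at 9.35, 10.26, 9.99, 10.72 and 10.37 in old cancer-free mice, at 8.55, 9.67 and 8.53 in young tumor-bearing mice and at 9.52, 9.83 and 9.58 in young cancer-free mice. Young tumor-bearing replicates 1 and 3 were below every other mouse, and replicate 2 was within the range of the other groups. Its intervals took in 0 in all 5 comparisons, with -0.73 ± 0.36 for tumor in young mice, -0.51 ± 0.32 for tumor in old mice, 0.49 ± 0.32 for old against young cancer-free mice and 0.71 ± 0.36 for old against young tumor-bearing mice. By mean level, old cancer-free mice came highest and young tumor-bearing mice lowest for each of the 3 CD3 genes, but groups next to each other in the order overlapped, as they did for all 9 genes.

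**Figure D1:**
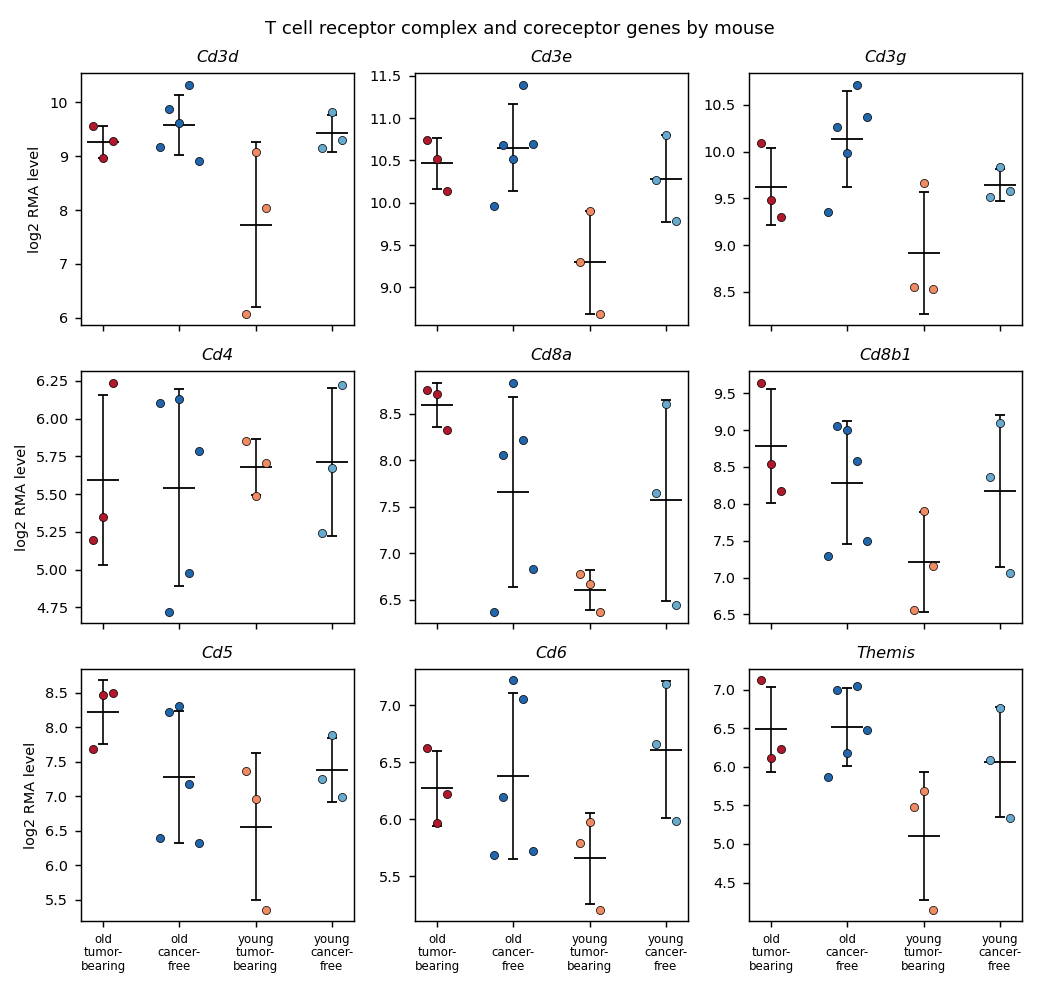
Log2 RMA level (vertical axis, a scale of its own in each panel) of the 9 genes in each mouse, by group; points are mice, the long bar is the mean and whiskers are 1 SD. For Cd3d and Cd6 the young tumor-bearing mice lie under all young cancer-free mice, and for Cd8a the 3 old tumor-bearing mice lie between 8.33 and 8.76 and the 3 young tumor-bearing mice between 6.37 and 6.78.

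Both CD8 genes had their highest mean in old tumor-bearing mice and their lowest in young tumor-bearing mice. Cd8a, which encodes the alpha chain used in both CD8 forms, stood at 8.76, 8.71 and 8.33 in old tumor-bearing mice, at 6.37, 8.06, 8.83, 8.22 and 6.83 in old cancer-free mice, at 6.78, 6.66 and 6.37 in young tumor-bearing mice and at 7.65, 8.61 and 6.45 in young cancer-free mice. The tumor-bearing groups were each tight and did not overlap, and each cancer-free group spread over most of the distance between them. Old exceeded young tumor-bearing mice by 1.99 ± 0.59 (95% interval 0.74 to 3.25, 3.98-fold, adjusted p = 0.281). Tumor-bearing minus cancer-free gave 0.94 ± 0.52 in old mice and -0.96 ± 0.59 in young mice, and the test of the difference between these gave 1.90 ± 0.79 (95% interval 0.21 to 3.59, adjusted p = 0.976).

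Cd8b1, which encodes the beta chain that marks the conventional CD8 alpha-beta coreceptor, stood at 9.64, 8.54 and 8.17 in old tumor-bearing mice, at 7.30, 9.05, 9.01, 8.58 and 7.50 in old cancer-free mice, at 6.56, 7.91 and 7.16 in young tumor-bearing mice and at 8.37, 9.10 and 7.06 in young cancer-free mice. The old tumor-bearing mice again lay above all young tumor-bearing mice, by 1.57 ± 0.60 on average (95% interval 0.29 to 2.85, adjusted p = 0.398). Ordered by Cd8a, 6 mice stood between 6.37 and 6.83, namely all 3 young tumor-bearing mice, old cancer-free replicates 1 and 5 and young cancer-free replicate 3. The next mouse was 0.81 higher, and the other 8 ran up to 8.83. The same 6 mice had the 6 lowest Cd8b1 levels, and over the 14 arrays the 2 genes correlated at r = 0.883 (0.827 after removing group means), as a description.

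For Cd4, the class II coreceptor, the group means lay close together. It stood at 5.20, 5.35 and 6.24 in old tumor-bearing mice, at 6.10, 4.72, 6.13, 4.98 and 5.79 in old cancer-free mice, at 5.85, 5.49 and 5.70 in young tumor-bearing mice and at 5.24, 5.67 and 6.22 in young cancer-free mice. All 4 groups overlapped, and their means lay within 5.54 and 5.71. The difference by age in tumor-bearing mice was -0.087 ± 0.40 (95% interval -0.94 to 0.77) and that by tumor in young mice was -0.031 ± 0.40 (95% interval -0.88 to 0.82). Across the 14 arrays Cd4 correlated negatively with each of the other 8 genes (r between -0.53 and -0.14), whereas the 28 pairs of the other genes ran between 0.29 and 0.94, with a median of 0.70.

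Among the genes that modulate the receptor signal, Cd5 and Themis separated old from young tumor-bearing mice, and Cd6 separated tumor-bearing from cancer-free young mice. Cd5, an inhibitory receptor, stood at 7.68, 8.46 and 8.50 in old tumor-bearing mice, at 6.39, 8.22, 8.30, 7.17 and 6.33 in old cancer-free mice, at 7.37, 6.96 and 5.36 in young tumor-bearing mice and at 7.25, 7.89 and 6.99 in young cancer-free mice. Old tumor-bearing mice were above young tumor-bearing mice without overlap, by 1.65 ± 0.59 (95% interval 0.40 to 2.91, adjusted p = 0.370). The tumor-bearing minus cancer-free difference was 0.93 ± 0.52 in old mice and -0.81 ± 0.59 in young mice, and the difference between the ages was 1.74 ± 0.79 (95% interval 0.057 to 3.43, adjusted p = 0.976).

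Themis stood at 7.12, 6.12 and 6.23 in old tumor-bearing mice, at 5.87, 7.0, 6.19, 7.05 and 6.48 in old cancer-free mice, at 5.48, 5.69 and 4.15 in young tumor-bearing mice and at 6.09, 6.76 and 5.34 in young cancer-free mice. The tumor-bearing groups did not overlap, and old mice exceeded young mice by 1.39 ± 0.46 (95% interval 0.39 to 2.38, adjusted p = 0.335). Cd6, a relative of CD5, stood at 6.63, 5.97 and 6.22 in old tumor-bearing mice, at 5.69, 6.20, 7.22, 7.06 and 5.73 in old cancer-free mice, at 5.79, 5.98 and 5.21 in young tumor-bearing mice and at 6.66, 7.19 and 5.99 in young cancer-free mice. Its highest young tumor-bearing mouse was just under the lowest young cancer-free mouse. The difference was -0.95 ± 0.42 (95% interval -1.86 to -0.042, adjusted p = 0.886), and that by age in tumor-bearing mice was 0.61 ± 0.42, with overlap.

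**Figure D2:**
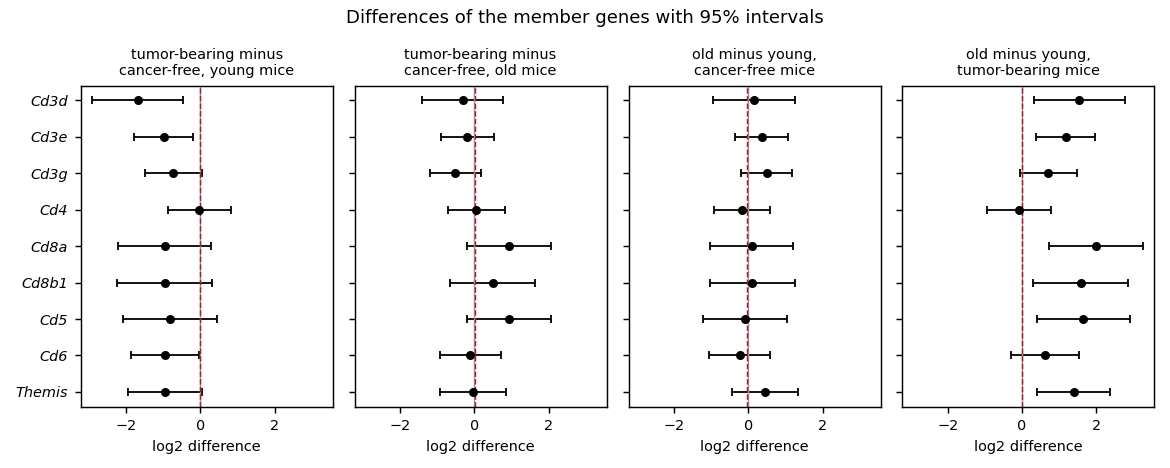
Log2 differences of the 9 genes (points) with 95% intervals from the limma fit (whiskers), a panel per comparison, with 0 as a solid line and the median of all genes tested as a dashed line. In tumor-bearing mice 6 of the 9 intervals for old minus young lie above 0, and all 9 take in 0 in the tumor comparison of old mice and in the age comparison of cancer-free mice.

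Over the comparisons, the widest separation was between old and young tumor-bearing mice. There, 6 of the 9 genes (Cd3d, Cd3e, Cd8a, Cd8b1, Cd5 and Themis) had an unadjusted p under 0.05 with the higher level in old mice, against 3.75% of all genes tested in that direction. Groups did not overlap for 5 of the 9 (those 6 without Cd3d), against 5.94% of all genes in that direction. The median of the 9 differences was 1.39, beside 0.0044 over all genes tested. The genes varied together from mouse to mouse, so their counts are not 9 separate observations. The count of 6 became 4 without young tumor-bearing replicate 1, 4 without young tumor-bearing replicate 3 and 3 without old tumor-bearing replicate 1. Without young tumor-bearing replicate 3 the age difference was 1.05 for Cd5 and 0.91 for Themis, and without replicate 1 that of Cd3d was 0.71 beside 1.54 with all arrays. With all arrays the adjusted p-values were 0.281 or more.

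For tumor in young mice all 9 differences were negative, with a median of -0.96 beside -0.022 over all genes, of which 52.8% were negative. An unadjusted p under 0.05 with the lower level in tumor-bearing mice was found for 3 of the 9 (Cd3d, Cd3e and Cd6), against 3.3% of all genes in that direction, and groups did not overlap for 2 of the 9 (Cd3d and Cd6), against 7.37% of all. That count of 3 became 1 without young tumor-bearing replicate 3 and 1 without young cancer-free replicate 2, but 6 without young cancer-free replicate 3 and 5 without young tumor-bearing replicate 2. The median was -0.61 without young cancer-free replicate 2, where Cd8a differed by -0.44, and Cd5 differed by -0.21 without young tumor-bearing replicate 3. This comparison and the age comparison in tumor-bearing mice share the young tumor-bearing arrays, so the 2 are not separate evidence.

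In old mice the tumor comparison gave a median of -0.027 over the 9 genes, beside 0.011 over all genes, with 4 positive and 5 negative differences between -0.51 (Cd3g) and 0.94 (Cd8a). For 0 of the 9 was the unadjusted p under 0.05, against 9.76% of all genes in either direction, and groups did not overlap for 0 of the 9, against 3.04% of all genes lower and 3.11% higher. In cancer-free mice old minus young gave a median of 0.11, beside -0.039 over all genes, with differences between -0.23 (Cd6) and 0.49 (Cd3g), 0 of the 9 under an unadjusted 0.05 against 7.66% of all in either direction, and 0 of the 9 without overlap, against 4.4% of all genes lower and 2.9% higher. The intervals there reached about 1 log2 unit or more to either side for Cd8a, Cd8b1 and Cd5, so changes of about 1 log2 unit were not excluded with these numbers of mice. The difference of the tumor effects, old minus young, was positive for all 9 genes, against 52.4% of all genes, with a median of 0.93 beside 0.024. For 2 of the 9 (Cd8a and Cd5) the unadjusted p was under 0.05 in that direction, against 2.57% of all genes. That count was 0 without any 1 of old tumor-bearing replicate 2, young cancer-free replicate 1, young cancer-free replicate 2 or young tumor-bearing replicate 3. It was 1 without old tumor-bearing replicate 1 or 3, without old cancer-free replicate 1, 4 or 5, with cyclic loess and with the replicate block, and it was 4 without young tumor-bearing replicate 2. Its median was 0.58 without young cancer-free replicate 2. Cd4 was positive by only 0.081 ± 0.53. The young arrays are those of the tumor comparison in young mice, so the 2 are not separate evidence.

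The spread between mice of a group was wide for these genes. The pooled SD over the groups ran between 0.48 (Cd3g) and 0.84 (Cd8b1), and all 9 exceeded the median of 0.34 over the genes tested. The mean over the 9 genes was 8.38, 8.01 and 8.05 in old tumor-bearing mice, 7.36, 8.23, 8.42, 8.39 and 7.62 in old cancer-free mice, 6.86, 7.48 and 6.58 in young tumor-bearing mice and 7.80, 8.41 and 7.41 in young cancer-free mice. Young tumor-bearing replicate 3 was the lowest of the 14 arrays for 6 of the genes and replicate 1 for 2 more (Cd3d and Cd8b1). Old cancer-free replicate 4 was the highest for the 3 CD3 genes.

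**Figure D3:**
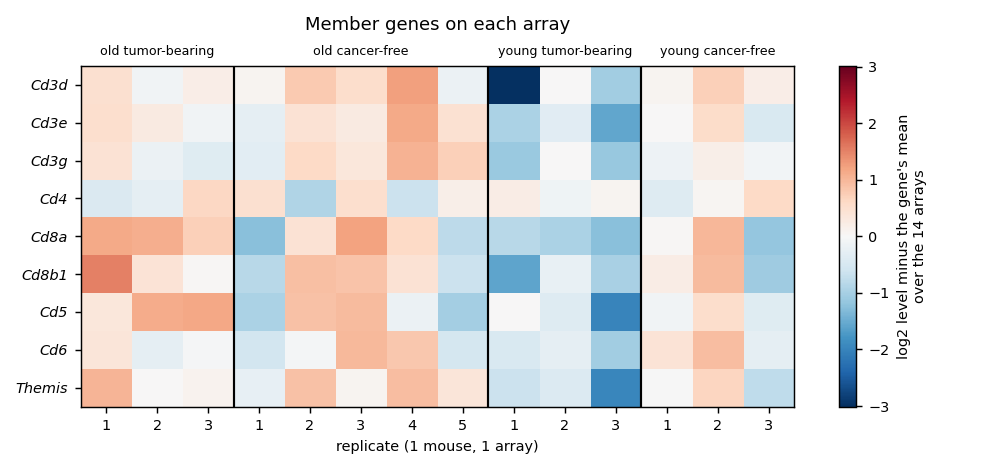
Level of each gene (rows) on each array (columns, grouped and numbered by replicate), as the log2 level minus that gene's mean over the 14 arrays, with red above and blue below that mean. Young tumor-bearing replicates 1 and 3 are mostly blue, with Cd3d of replicate 1 at -3.01, and Cd4 does not follow the other rows.

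Genes outside the list were ranked by their correlation with the mean of the 3 CD3 genes over the 14 arrays, as a description. The 10 most alike were Zfp868 (r = 0.911), Ms4a6b (0.857), Gimap4 (0.854), Il7r (0.852), Acp5 (0.851), Cd2 (0.848), Ier5 (0.846), Gimap8 (0.846), Etfbkmt (0.845) and Krcc1 (0.836). Il7r encodes the interleukin 7 receptor alpha chain, Cd2 an adhesion receptor of T and natural killer cells, and Gimap4 and Gimap8 GTPases of lymphocytes. After removing group means these correlations ran between 0.621 (Etfbkmt) and 0.880 (Zfp868), and without young tumor-bearing replicate 1 between 0.695 (Krcc1) and 0.862 (Etfbkmt). Of the members, Themis correlated with the CD3 mean at 0.82, Cd8b1 at 0.75, Cd6 at 0.68, Cd8a at 0.59, Cd5 at 0.39 and Cd4 at -0.42.

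The other genes of receptor signalling stood about evenly on both sides of 0 between the ages in tumor-bearing mice. Of 28 genes of proximal T cell receptor signalling, 25 were tested, with a median for old minus young tumor-bearing mice of 0.0054, 13 positive and 12 negative. An unadjusted p under 0.05 was found for 0 of 25 in the higher direction, against 3.75% of all genes, and for 2 in the lower, against 6.35%. Whether this list differs from the 9 genes was not tested. The 2 lower genes were Rasgrp1 and Ubash3b. Rasgrp1, a Ras activator, averaged 6.40 ± 0.60 in old and 7.53 ± 0.46 in young tumor-bearing mice, and Ubash3b, a phosphatase that dampens receptor signalling, differed by -1.08 ± 0.36 with overlap (-0.62 without old tumor-bearing replicate 2). Txk, a Tec family kinase, averaged 8.01 ± 0.16 in old and 7.42 ± 0.39 in young tumor-bearing mice without overlap. For tumor in young mice the median of this list was -0.23, with 18 of 25 negative, against 52.8% of all genes. There Tespa1, a regulator of receptor signalling in thymocytes, differed by -0.99 ± 0.35 and Zap70, the kinase that docks on phosphorylated CD3 and zeta chains, by -0.73 ± 0.41, both without overlap between the groups and with an adjusted p of 0.886 or more.

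Of 16 costimulatory and adhesion receptors 15 were tested, with medians of -0.12 for age in tumor-bearing mice and -0.32 for tumor in young mice. Cd27, a costimulatory receptor, averaged 7.51 ± 0.22 in old tumor-bearing, 6.39 ± 0.95 in young tumor-bearing and 7.56 ± 0.24 in young cancer-free mice, and did not overlap in either comparison with young tumor-bearing mice (1.12 ± 0.43 for age, -1.16 ± 0.43 for tumor). Without young tumor-bearing replicate 1 these differences of Cd27 were 0.60 and -0.65, and that of Cd2 for tumor was -0.47 beside -0.84 with all arrays. Cd2 averaged 8.85 ± 0.63 in young tumor-bearing and 9.68 ± 0.044 in young cancer-free mice, and Thy1 10.06 ± 0.27 and 10.45 ± 0.058 in the same groups, both without overlap. Tigit, an inhibitory receptor, ran the other way with age, at 4.63 ± 1.15 in old and 6.64 ± 1.12 in young tumor-bearing mice (-2.01 ± 0.57, adjusted p = 0.260). These groups overlapped for Tigit. Of 14 T lineage factors and precursor genes 11 were measured and 10 tested, with medians of -0.14 for age in tumor-bearing mice and -0.13 for tumor in young mice. Bcl11b, a T lineage factor, differed by 0.80 ± 0.31 with age in tumor-bearing mice, with overlap. Runx3 (-0.68 ± 0.16, adjusted p = 0.182) and Tox (-0.78 ± 0.24, adjusted p = 0.304) were lower in old mice there without overlap, as were 980 of all 13805 genes. In the tumor comparison of old mice 20 of 25 proximal signalling genes, 14 of 15 costimulatory and adhesion receptors and 8 of 10 lineage factors were negative. Of all genes tested 48.7% were negative there. The medians of the 3 lists were -0.39, -0.21 and -0.26. An unadjusted p under 0.05 was found for 6, 5 and 3 of them, all lower in tumor-bearing mice. In that direction limma found 768 of all 13805 genes and 0 of the 9 receptor complex genes. Of 12 natural killer cell markers tested, 6 also passed that threshold in the lower direction. Whether these lists differ from the 9 genes was not tested.

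Levels of the receptor's own variable segments were available for 8 genes with a probe of 1 symbol, and 6 were tested. For old minus young tumor-bearing mice 3 of the 6 were positive and 3 negative, with a median of 0.29. An unadjusted p under 0.05 was found for 2 of the 6, both higher in old mice, against 3.75% of all genes in that direction. Groups did not overlap for 1 of the 6 there, against 5.94% of all genes higher. For tumor in young mice they did not overlap for 2 of the 6, against 7.37% of all genes lower. Segments of near-identical sequence can share a probe's signal, so their identity is uncertain. Trav9d-3 stood at 10.36, 10.41 and 10.91 in old tumor-bearing mice, at 10.17, 10.72, 10.99, 11.22 and 10.41 in old cancer-free mice, at 9.93, 10.35 and 8.99 in young tumor-bearing mice and at 10.004, 10.69 and 10.09 in young cancer-free mice. Its tumor-bearing groups did not overlap, though by a margin of hundredths, with a difference of 0.80 ± 0.35 (adjusted p = 0.455), which was 0.42 without young tumor-bearing replicate 3. Trav7-4 differed by 1.59 ± 0.73 in the same comparison (adjusted p = 0.481) and by -1.35 ± 0.73 for tumor in young mice, there without overlap. With the mean of its probes the age difference was 0.55. In the same age comparison Trav12-2 differed by 0.89 ± 0.64, Trbv13-2 by -0.93 ± 1.07, Trav14d-3-dv8 by -0.61 ± 0.86 and Trgv5 by -0.22 ± 0.41, each with an interval that took in 0. Trav14d-3-dv8 was 2.29 ± 0.77 lower in old tumor-bearing than in old cancer-free mice (adjusted p = 0.403), but the old cancer-free mice spread between 4.62 and 9.20 and the groups overlapped. Trav12-2 differed by 1.55 ± 0.57 for tumor in old mice with its brightest probe and by -0.66 with the mean of its probes, so no direction is given for it there. Trgv5, a gamma chain segment, lay between 2.78 and 4.76 over all arrays, around the table median, and its groups overlapped in each comparison.

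**Figure D4:**
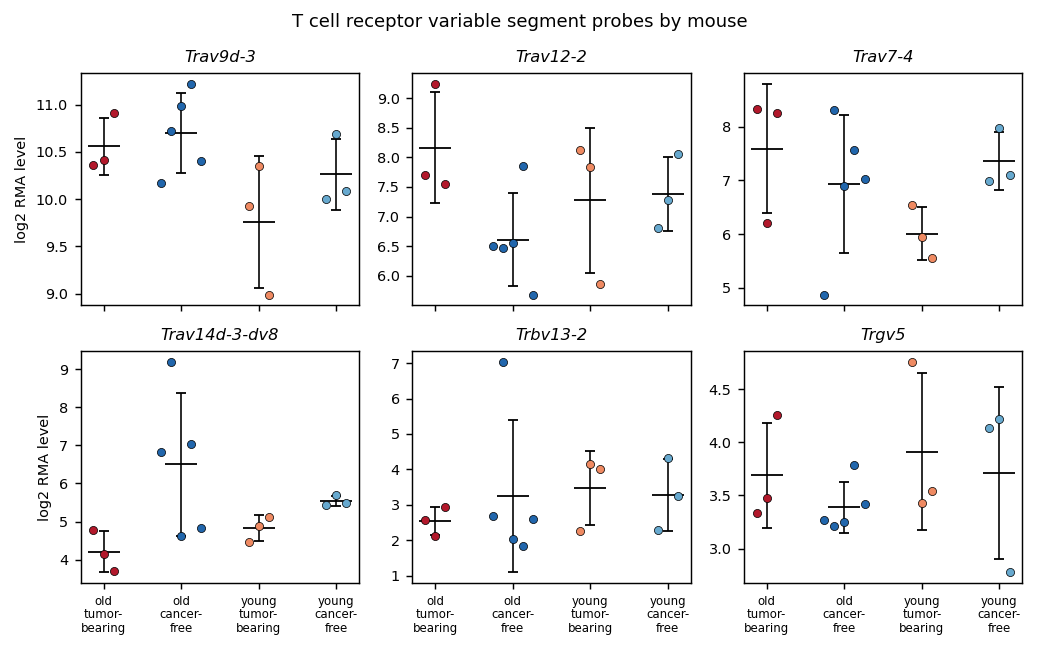
Log2 RMA level (vertical axis, a scale of its own in each panel) of the 6 tested variable segments in each mouse, by group, with the mean (long bar) and 1 SD (whiskers). Trav9d-3 is between 8.99 and 11.22 in every mouse, while Trav14d-3-dv8 and Trbv13-2 vary most among old cancer-free mice.

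Markers of other cells that a Sca1-positive gate can hold also varied between these groups. The mean over 12 of 14 natural killer cell markers was 7.36 ± 0.22 (arrays at 7.20 to 7.61) in old tumor-bearing, 8.07 ± 0.23 (7.72 to 8.26) in old cancer-free, 7.92 ± 0.39 (7.46 to 8.18) in young tumor-bearing and 8.37 ± 0.22 (8.14 to 8.59) in young cancer-free mice. It was lower in tumor-bearing mice at both ages, with list medians of -0.73 in old and -0.43 in young mice. At each age 11 of 12 genes were negative, against 48.7% of all genes tested in old and 52.8% in young mice. For old minus young tumor-bearing mice the list median was -0.60. Klrc1, a receptor of natural killer cells, differed by -1.15 ± 0.44 for tumor in young mice without overlap (-0.60 without young tumor-bearing replicate 1), and Itga2, an integrin of those cells, by -1.64 ± 0.40 for age in tumor-bearing mice (adjusted p = 0.188). None of the 12 was below the median of the table on all arrays.

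The mean over 13 of 15 plasmacytoid dendritic cell markers was 6.01 ± 0.32 (5.68 to 6.33) in old tumor-bearing, 6.28 ± 0.61 (5.58 to 6.97) in old cancer-free, 7.20 ± 0.46 (6.84 to 7.72) in young tumor-bearing and 7.31 ± 0.58 (6.71 to 7.86) in young cancer-free mice. All 13 were lower in old mice, with medians of -0.80 in tumor-bearing and -1.13 in cancer-free mice. Of all genes tested 49.5% and 55.5% were lower in those 2 comparisons. Siglech, a surface lectin of these cells, differed by -1.90 ± 0.50 in the tumor-bearing pair (adjusted p = 0.217). Of 10 monocyte and macrophage markers 9 were measured, and 1 of them, below the table median on all arrays, was not tested. The mean over the 8 tested was 6.09 ± 0.35 (5.78 to 6.47) in old tumor-bearing, 6.18 ± 0.43 (5.94 to 6.94) in old cancer-free, 6.70 ± 0.17 (6.51 to 6.85) in young tumor-bearing and 6.79 ± 0.28 (6.49 to 7.03) in young cancer-free mice. The 8 tested had medians of -0.62 for age in tumor-bearing mice and -0.59 in cancer-free mice. All 8 were negative in each, against 49.5% and 55.5% of all genes. Mature B cell markers (10 of 12) had medians of -0.22 for age in tumor-bearing mice and -0.22 for tumor in young mice. Among 6 conventional dendritic cell markers the medians were 0.024 and -0.23, with differences of both signs between -2.04 and 0.45 by age in tumor-bearing mice. Flt3, a cytokine receptor of dendritic cells and their precursors, averaged 4.45 ± 0.63 in old and 6.49 ± 0.80 in young tumor-bearing mice (-2.04 ± 0.45, adjusted p = 0.182). Itgax, which encodes CD11c, averaged 4.07 ± 0.97 in old and 5.88 ± 0.70 in young tumor-bearing mice (-1.81 ± 0.49, adjusted p = 0.226), both without overlap. Zbtb46, a factor of conventional dendritic cells, differed by 0.45 ± 0.20 with overlap. Group 2 innate lymphoid cell markers (7 tested) had medians of -0.51 and -0.16, neutrophil markers (10 tested) -0.36 and 0.029, erythroid markers (3 tested) -0.13 and 0.41, and innate-like and gamma delta T cell genes (5 tested) -0.030 and 0.070 in the same 2 comparisons. The 4 group means of the B cell list were 7.17, 7.55, 7.39 and 7.65 in old tumor-bearing, old cancer-free, young tumor-bearing and young cancer-free mice. In all lists 0 genes passed the adjusted test. Their part in the values of the T cell receptor genes was not tested.

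**Figure D5:**
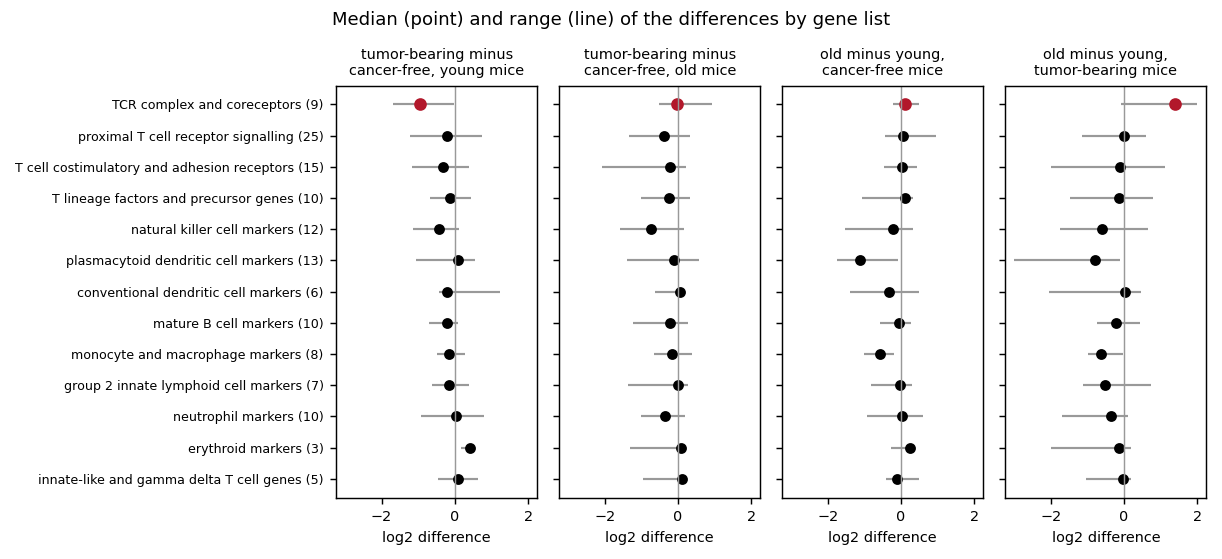
Median (points) and range (lines) of the log2 differences of each gene list, a panel per comparison, with the number of genes tested in parentheses and the T cell receptor genes in red at the top. For old minus young tumor-bearing mice the red point is at 1.39 and the points of the other 12 lists drawn lie between -0.80 and 0.024. The variable segments are not drawn here.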

How the data were processed

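RNA from sorted marrow cells of 14 mice (500 pg of total RNA per sample, amplified and labelled with biotin) was hybridised to 1-colour arrays. The submitters' processing notes name RMA, oligo 1.32.0 and R 3.2.0 as what the authors used to make the deposited log2 values. The log base was read off the range of the values, since the file does not state it. The array build, and which arrays were normalised together, are not given in the sources used here. Precision is limited by how few arrays each group has. The labels call the samples biological replicates, and groups come from the sample titles.

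Of 41345 probes, 23521 carried 1 gene symbol, 1814 several and 16010 none, and symbols were updated through Entrez identifiers for 23328. The brightest probe on average was kept for the 1082 genes with more than 1. Genes above the table median on at least 3 arrays were tested. The means of the 4 groups were modelled with limma 3.58.1 (R 4.3.3) without a variance trend. P-values were taken two-sided and adjusted by Benjamini and Hochberg within each of 5 comparisons at 0.05, and the fit was tested on simulated data. Named genes were all members, the 10 genes most alike to the CD3 mean (without predicted, small RNA or chemosensory receptor genes), some of the 4 genes of a list with the smallest p in either of 2 comparisons (tumor in young mice, age in tumor-bearing mice), taken from 6 of the 12 lists, all 6 variable segments tested, and Kit and Ptprc. The plan had been to name up to 4 variable segments, by highest mean. Trav14d-3-dv8, Trav12-2 and Trbv13-2 were described in old mice after their values were seen. The members and the 12 other gene lists were chosen with earlier results of these data known.

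Alternatives changed the filter on dim genes (none, or stricter), the scaling (cyclic loess, median centring), the variance model (trend with robust prior, weights per array), the value of a gene (its probes' mean) and the samples fitted (the compared groups alone, replicate number blocked, each array left out in turn). Promoters came from RefSeq. Cd247 was not analysed here because no probe carries its symbol alone in the annotation used.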

Additional observations from a re-analysis of the deposited data

Results flagged for a closer look

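Trbv13-2, a variable segment of the T cell receptor beta chain, stood at 7.04 in old cancer-free replicate 2, far from the other 4 mice of its group, which ran between 1.85 and 2.69. The gap exceeded Dixon's 95% critical value for 5 samples. The 5 old cancer-free mice were the only group large enough for this test, 15 genes (the 9 members and 6 variable segments) were examined, and 1 was set apart, where chance alone gives about 1 in 20. In the other groups Trbv13-2 reached at most 4.32. The cause was not tested.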

How the results depend on the processing

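Under each of 23 alternative settings, 14 of which left out 1 array, 0 of the 9 genes passed the adjusted test in any comparison. Among all genes tested 0 passed in the age comparison of tumor-bearing mice, but 6 did with cyclic loess, 9 with median centring and 7 with the mean of a gene's probes. Leaving out 1 array gave 0 to 2 there and 0 to 4 for tumor in old mice. With arrays left out, the median of the 9 differences for age in tumor-bearing mice ran between 0.91 (without young tumor-bearing replicate 3) and 1.68, and for age in cancer-free mice between -0.069 and 0.57 (without young cancer-free replicate 2). Both moved by more than the SD of 0.44 between replicates in the mean over the genes.

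Mice of equal replicate number did not vary together over the genes tested. Over 18 pairs of equal number the correlation of deviations from group means ran between -0.076 and 0.089, with 0 above 0.1. This cannot show that equal numbers share nothing, and the sample titles name no pairing. With the replicate block the median for the difference of the tumor effects was 1.09. The block turned the sign of Cd3e (0.078), Themis (0.14) and Cd4 (-0.058) for tumor in old mice, of Cd5 for age in cancer-free mice (0.26) and of Cd4 for the difference of the tumor effects (-0.027). Array weights did so for Cd4 (0.022 for tumor in young mice, -0.047 in old mice, -0.069 for their difference), Themis (0.062, tumor in old mice), Cd8a (-0.031) and Cd8b1 (-0.046, both age in cancer-free mice). Cyclic loess did so for Cd4 (0.042, tumor in young mice), Themis (0.033, tumor in old mice) and Cd5 (0.043, age in cancer-free mice), and the mean of probes for Trav12-2 (-0.66, tumor in old mice).

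Leaving out 1 array gave either sign, for age in cancer-free mice, to Cd3d (-0.028 to 0.35), Cd4 (-0.40 to 0.086), Cd5 (-0.35 to 0.17), Cd6 (-0.54 to 0.054), Cd8a (-0.47 to 0.62) and Cd8b1 (-0.45 to 0.57). For tumor in old mice it did so for Cd3e (-0.35 to 0.0024), Cd4 (-0.27 to 0.25), Cd6 (-0.28 to 0.10) and Themis (-0.34 to 0.16). The same held for Cd4 for tumor in young mice (-0.27 to 0.22), for age in tumor-bearing mice (-0.41 to 0.11) and for the difference of the tumor effects (-0.24 to 0.32), for Cd3g in that difference (-0.017 to 0.59) and for Trgv5 for age in tumor-bearing mice (-0.50 to 0.20). The cause was not tested. Each of these differences was small beside its interval.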
